A study of Mus musculus with 2 samples.

Results

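The Mir378 family of the mouse comprises 4 annotated microRNA (miRNA) genes, Mir378a, Mir378b, Mir378c and Mir378d, chosen by gene symbol from the 2202 miRNA genes counted. They were measured by small RNA sequencing in the gastrocnemius, the main calf muscle, of 2 male B6CASTF1/J mice aged 10 days. B6CASTF1/J mice are first-generation hybrids with a C57BL/6J and a CAST/EiJ parent. The labels name no treatment, a single group and 1 library per animal, so the data give the level of each gene and its spread over 2 libraries, and no comparison of conditions was possible. The labels number the samples as separate animals and give them the same donor entry. The whole muscle was the source, so fewer cells of a type and less RNA per cell cannot be told apart.

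A miRNA is cut from a hairpin precursor and guides a silencing complex to messenger RNAs, which it recognises mainly through its seed, bases 2 to 8 counted from the 5′ end. Mir378a lies inside Ppargc1b, the gene of a transcriptional coactivator (PGC-1β) that drives mitochondrial and oxidative genes. Its product has been studied as a regulator of myoblast differentiation, of mitochondrial metabolism and of brown fat. The other members carry related sequences at separate loci and have been studied far less.

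Sequences of 3 of the 4 members, Mir378b, Mir378c and Mir378d, were matched in RefSeq (GRCm38.p6). Mir378a was not compared by sequence here, so the sequence statements that follow do not cover it. Their mature forms are shown because they differ within the seed although the remainder is nearly the same. The seed is in capitals.
mmu-miR-378b: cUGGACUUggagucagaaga
mmu-miR-378c: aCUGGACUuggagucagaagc
mmu-miR-378d: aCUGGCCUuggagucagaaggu

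No pair of these mature forms had the same seed. The annotated miR-378b is 20 nt long and begins 1 base later than miR-378c, so its seed, UGGACUU, is that of miR-378c, CUGGACU, moved by 1 base. Aligned, miR-378b and miR-378c share 19 consecutive bases and differ by A20C (the base and position of miR-378b first, counted from its 5′ end, then the base of miR-378c). The seed of miR-378d differs from that of miR-378c by A6C, and a further difference, C21G, lies at the 3′ end (positions on miR-378c). All 3 mature forms contain the 14 bases cuuggagucagaag, which were found in no further hairpin among the 1005 of the RefSeq table used, where Mir378a was not compared. None of the 3 seeds was shared by another of the 1679 mature miRNA names in that table, a count that does not include the products of Mir378a.

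The precursors are also unlike each other in where the mature form lies, as the hairpins show with the mature bases in capitals.
Mir378b: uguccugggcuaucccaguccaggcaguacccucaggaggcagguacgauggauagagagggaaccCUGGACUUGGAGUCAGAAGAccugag
Mir378c: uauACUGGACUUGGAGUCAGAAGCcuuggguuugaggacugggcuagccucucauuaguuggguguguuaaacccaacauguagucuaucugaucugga
Mir378d: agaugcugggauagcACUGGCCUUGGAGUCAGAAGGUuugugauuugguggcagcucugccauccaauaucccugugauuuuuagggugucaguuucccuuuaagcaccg

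The mature form is on the 3′ arm of Mir378b, at bases 67 to 86 of 92. It is on the 5′ arm of Mir378c, at bases 4 to 24 of 99, and on the 5′ arm of Mir378d, at bases 16 to 37 of 110. The minimum free energy predicted by RNAfold was -31.1 kcal/mol for Mir378b, -27.0 for Mir378c and -35.0 for Mir378d. Divided by length these are -0.338, -0.273 and -0.318 kcal/mol per base, against a median of -0.406 over the 1005 hairpins. Only 6.77% of those hairpins were predicted to fold less stably per base than Mir378c, 17% less than Mir378d and 24.1% less than Mir378b. These are predictions from sequence, and the counts do not tell the arms apart.

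The loci differ in how they sit relative to other genes (coordinates 1-based, mm10, GENCODE M21). Mir378a (ENSMUSG00000105200.1) occupies chromosome 18, 61397835 to 61397900, on the minus strand. It lies in intron 1 of Ppargc1b, on the strand of that gene, 2531 nt downstream of the annotated gene start. All 3 Ppargc1b transcripts that are annotated there hold it in intron 1. Mir378b (ENSMUSG00000092985.1; chromosome 11, 88352773 to 88352864, plus strand) overlaps an intron of Msi2, an RNA-binding protein gene, which is on the opposite strand. Mir378c (ENSMUSG00000099036.1; chromosome 14, 46954830 to 46954928, minus strand) overlaps an intron of Samd4, another RNA-binding protein gene, also on the opposite strand. Mir378d (ENSMUSG00000098756.1; chromosome 10, 126710282 to 126710391, minus strand) overlaps no annotated gene. The nearest, Gm47966, is 3614 nt away. Mir378a is therefore the member of the 4 that lies within a host gene on the same strand.

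Replicate 1 had 3999172 reads assigned to miRNA genes and replicate 2 had 5062714. Reads that match several genomic places, 47.0% of replicate 1 and 48.0% of replicate 2, are in no gene. Levels are counts on the sense strand per 1000000 assigned counts (CPM). Intervals are exact (Clopper-Pearson, 95%) and cover the counting error of reads only. No molecular identifiers are given, so the intervals do not cover the counting error of molecules. The tissue label was checked against marker lists. The 9 skeletal muscle genes took 9.47% ± 0.92 (SD, n = 2) of the assigned counts, nearly all from Mir206, a miRNA specific to skeletal muscle. The remaining genes of that list had means from 247 CPM (Mir499) down to 1.67 CPM (Mir133a-2) by assigned reads. Whether reads that match several places lowered these values was not tested. Of the 9, 7 had at least 10 counts in both libraries, so the check of the label rests mainly on Mir206. The smooth muscle and endothelial lists took 2.71% ± 0.36 and 6.19% ± 0.86. The 4 brown adipocyte markers, led by Mir455, took 0.0651% ± 0.0049, and the 5 leukocyte markers, led by Mir342, took 0.128% ± 0.00039. No gene of these lists was at 0 counts.

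By assigned counts, Mir378a was among the most abundant miRNA genes of the young muscle, and the other members had far lower counts. Genes whose reads match several genomic places can be undercounted, so the ranks hold for assigned reads only. Mir378a had 377335 counts in replicate 1 and 432868 in replicate 2. These are 94353 CPM (interval 94067 to 94640) and 85501 CPM (interval 85258 to 85745). Its mean was 89927 ± 6259 CPM, or 8.99% ± 0.63 of all assigned counts, and it held rank 3 in both libraries. As a share of every read in the table, unassigned reads included, Mir378a made up 3.90% of replicate 1 and 3.36% of replicate 2.

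Mir378c, the next member, had 149 counts in replicate 1 and 160 in replicate 2. Its level was 37.3 CPM (interval 31.5 to 43.7) and 31.6 CPM (interval 26.9 to 36.9), with a mean of 34.4 ± 4.0 CPM. Mir378d had 96 and 83 counts in replicates 1 and 2, or 24.0 CPM (interval 19.4 to 29.3) and 16.4 CPM (interval 13.1 to 20.3), with a mean of 20.2 ± 5.4 CPM. The libraries of these genes did not overlap, and neither did their counting intervals within a library. Mir378b had 52 and 36 counts, or 13.0 CPM (interval 9.71 to 17.1) and 7.11 CPM (interval 4.98 to 9.84), with a mean of 10.1 ± 4.2 CPM. It lay below Mir378d in each library, again with intervals that did not overlap.

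**Figure D1:**
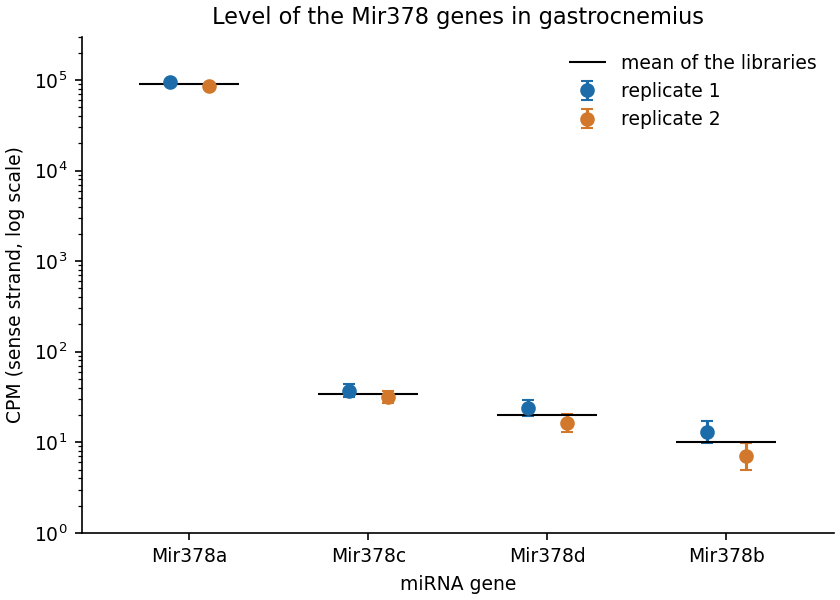
Level of each Mir378 gene (CPM of sense-strand counts, log axis) in the 2 libraries, with exact 95% counting intervals as bars and the mean as a black line. Mir378a sits near 89927 CPM, and Mir378c, Mir378d and Mir378b follow at 34.4, 20.2 and 10.1 CPM in the same order in both libraries.

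The order Mir378a, Mir378c, Mir378d, Mir378b was the same in both libraries. It was also the same when CPM was divided by hairpin length (66, 99, 110 and 92 nt, in that order), with mean values of 1363, 0.348, 0.184 and 0.109 CPM per nt. The mean CPM of Mir378a was 2612 times that of Mir378c, 4452 times that of Mir378d and 8942 times that of Mir378b. Detection, set at 10 or more counts in each library, was met by all 4 genes and by 14.2% of the 2202 genes. By mean CPM, Mir378c was at rank 212, Mir378d at rank 232 and Mir378b at rank 256, all within the lower part of the 313 detected genes.

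**Figure D2:**
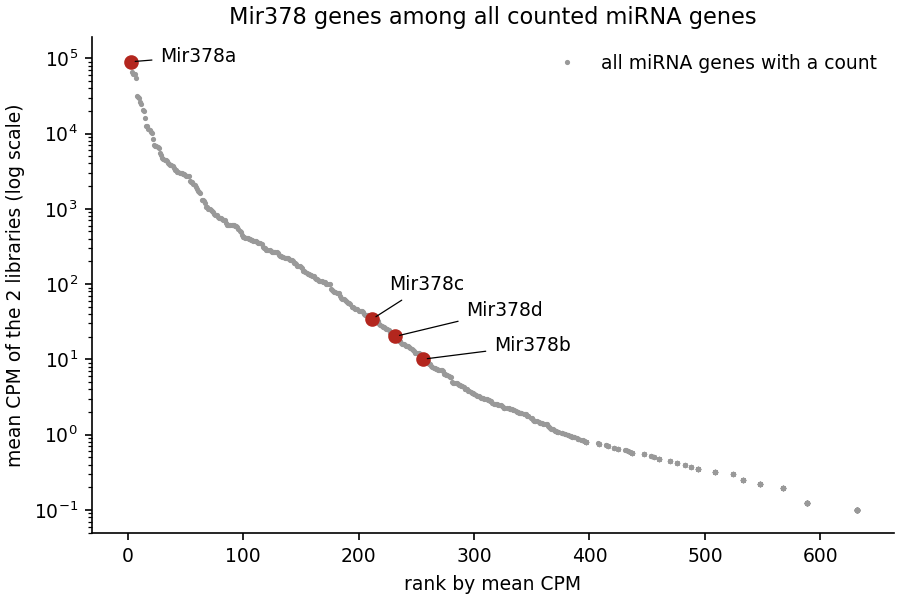
Mean CPM (log axis) of every miRNA gene with a count, against its rank, with the Mir378 genes in red. Mir378a stands at rank 3 and the other members between ranks 212 and 256.

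Within the family, Mir378a took 99.921% of the counts in replicate 1 (interval 99.912 to 99.930) and 99.936% in replicate 2 (interval 99.928 to 99.943). Mir378b, Mir378c and Mir378d together gave 297 counts in replicate 1 and 279 in replicate 2. Ratios to Mir378a need no scaling of the libraries. Per 100000 counts of Mir378a, Mir378c had 39.5 counts (interval 33.4 to 46.4) in replicate 1 and 37.0 (interval 31.5 to 43.2) in replicate 2. For Mir378d the ratio was 25.4 (interval 20.6 to 31.1) and 19.2 (interval 15.3 to 23.8), and for Mir378b it was 13.8 (interval 10.3 to 18.1) and 8.32 (interval 5.82 to 11.5). For each of these members the intervals of the libraries overlapped. Mir378b and Mir378c share 19 consecutive bases, and a read that holds only those bases matches both hairpins and is counted for neither. How many reads of any member were set aside in this way was not tested. Whether some reads of Mir378a were counted for the other members was not tested either, since Mir378a was not compared by sequence.

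The counts at Mir378a depend on whether the strand is read, because another annotated miRNA gene lies across it. Gm25301 (chromosome 18, 61397813 to 61397925, plus strand) is 113 nt long and covers the whole of Mir378a on the opposite strand. In the sense column Mir378a had 377335 and 432868 counts, and in the opposite-strand column it had 0 in both libraries. At a count of 0, up to 3 reads cannot be told from none, equal to 0.75 and 0.593 CPM in replicates 1 and 2. Relative to the sense reads at Mir378a, 3 reads are 0.000795% in replicate 1 and 0.000693% in replicate 2.

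Gm25301 itself had 1 sense count in replicate 1 and 0 in replicate 2. In the column that ignores strand, Mir378a had 0 counts in both libraries and Gm25301 had 2 in each. The opposite-strand column of Gm25301 held 377336 and 432870 reads, that is 1 and 2 more than the sense counts of Mir378a. With the 1 and 0 sense counts of Gm25301 these are 2 reads in each library, the number left to Gm25301 when strand is ignored. The remaining reads at the pair overlap both genes and, without strand, are in the row of ambiguous reads. That row held 712960 reads in replicate 1 and 925823 in replicate 2, and the Mir378a count equals 52.9% and 46.8% of it. With strand, the row held 0 reads.

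**Figure D3:**
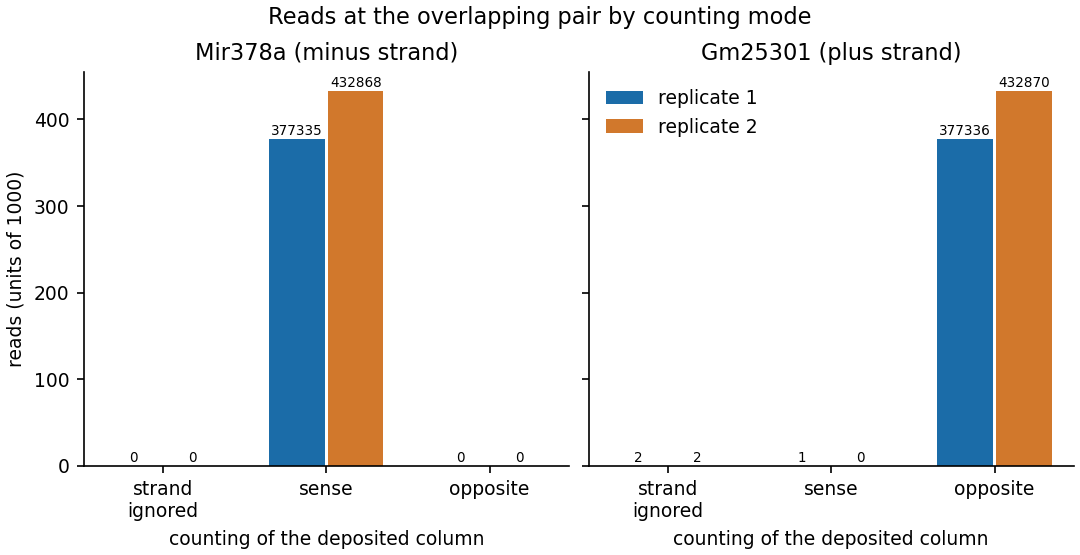
Reads (in units of 1000) at Mir378a and at Gm25301, which covers it on the other strand, in the 3 deposited columns, with the count above each bar. Mir378a has 377335 and 432868 sense reads and 0 in the other columns, while the same reads appear on the opposite strand of Gm25301.

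The loss without strand was common to overlapping pairs. Of the 2202 genes, 64 overlap a miRNA gene on the other strand, and 28 of these had at least 10 sense counts in replicate 1. All 28 kept at most 1% of their sense counts when strand was ignored, and in replicate 2 this held for 28 of 29, the exception being Mir219a-1 with 1 of 31 counts, which is named after its values were seen. Mir378a had the highest sense count of the 64, with 52.9% of their sum in replicate 1 and 46.8% in replicate 2. Mir378b, Mir378c and Mir378d overlap no miRNA gene on the other strand, and their counts with and without strand were the same, with 0 on the opposite strand.

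By level, Mir378a stood beside an imprinted and a muscle-specific miRNA. Mir127, of the imprinted Dlk1-Dio3 region, reached 98258 and 95612 CPM in replicates 1 and 2, above both libraries of Mir378a. Mir206 had 100599 and 87446 CPM, which overlaps the range of Mir378a, and the means of Mir206 and Mir378a differed by less than either SD. Below it, Mirlet7i had 66472 and 65823 CPM and Mir411 had 60293 and 64841 CPM, both under each library of Mir378a. These values are per hairpin gene and are not divided by length. Over the 2 libraries, the genes of at least 1000 CPM whose log2 ratio lay nearest to that of Mir378a (-0.07) were Mir196b (-0.07), Mir298 (-0.08) and Mir130a (-0.06), out of 69 compared. With 2 libraries such likeness is a description of 1 ratio per gene.

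All 4 members had a lower scaled level in replicate 2 than in replicate 1, and the ratio of Mir378a was small. The test was an exact binomial one, two-sided, on TMM-scaled totals, adjusted by Benjamini-Hochberg over 332 genes, which measures counting error only and compares these 2 libraries. The test passed 2 of the 4 members, both lower in replicate 2, where it passed 131 of 332 genes (39.5%), of which 41 (12.3% of those tested) were lower and 90 (27.1%) higher. With plain library totals in place of TMM, 62 genes were higher and 79 lower in replicate 2, against 90 and 41 with TMM. The median log2 ratio was -0.32 over the 4 members and 0.02 over all genes tested.

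For Mir378a the log2 ratio of replicate 2 over replicate 1 was -0.07 (interval -0.08 to -0.06, exact binomial adjusted p = 2.55e-106), which is 0.952-fold, and with plain totals it was -0.14. Mir378b, the least abundant member, had a log2 ratio of -0.80 (interval -1.45 to -0.16, exact binomial adjusted p = 0.0288), from 52 and 36 counts. Its adjusted p was 0.0594 when genes with low counts were tested too. Mir378d had a log2 ratio of -0.48 (interval -0.92 to -0.04, exact binomial adjusted p = 0.0694), which passed with plain totals (adjusted p = 0.0317). Mir378c had -0.17 (interval -0.50 to 0.17, exact binomial adjusted p = 0.474), so a difference was not detectable at its depth.

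A negative binomial exact test (edgeR), whose dispersion takes in the variation between the libraries, passed 6 of 332 genes (1.81%) and none of the 4 members. Their adjusted p-values in that test were 0.971 for Mir378b and 1 for the others, and 23 of the 332 genes had an unadjusted p under 0.05. The biological coefficient of variation over all genes, estimated from the same 2 libraries taken as 1 group, was 0.141. The differences tested are part of that spread, so the lack of a call cannot show that the members are alike. Markers of cell types also differed between the libraries. The skeletal muscle list took 10.1% in replicate 1 and 8.82% in replicate 2, mostly through Mir206 (log2 ratio -0.13). Its members Mir499 (0.72), Mir208b (0.69), Mir1a-2 (0.36) and Mir486 (0.17) passed the exact binomial test as higher in replicate 2. Mir133b (-0.28), Mir133a-1 (-0.38) and Mir1a-1 (0.47) did not pass, and Mir133a-2 was not tested. The share of the erythroid pair Mir451a and Mir144 was 0.168% in replicate 1 and 0.409% in replicate 2, and that of the hepatocyte Mir122 was 0.0103% and 0.0272%. In replicates 1 and 2, the endothelial list took 5.58% and 6.79%, and the smooth muscle list 2.46% and 2.97%. The smooth muscle share followed Mir143 (23930.5 and 29123.5 CPM), while Mir145a went the other way (641 and 589 CPM) without passing the exact binomial test. The leukocyte list took 0.128% in both libraries, although Mir142 (log2 ratio 0.34) and Mir155 (0.21) passed the exact binomial test as higher in replicate 2. Mir342 (0.04), Mir150 (-0.05) and Mir223 (-0.04) did not pass. The brown adipocyte list took 0.0686% and 0.0617%. The part of these cells in the Mir378 ratios was not tested.

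**Figure D4:**
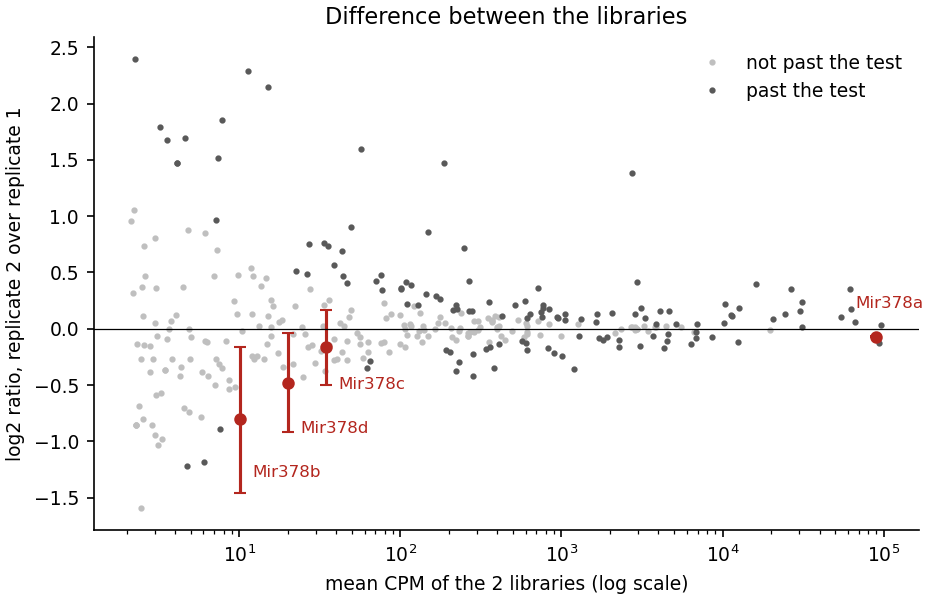
Log2 ratio of replicate 2 over replicate 1 (TMM scaling) against mean CPM (log axis) for 332 miRNA genes, with the Mir378 genes in red and their exact 95% counting intervals. All 4 members lie below 0, from -0.07 for Mir378a to -0.80 for Mir378b.

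Other miRNAs that lie in introns of metabolic genes, listed for context, had far fewer assigned counts than Mir378a. Mir107, in an intron of the pantothenate kinase gene Pank1, stood at 258 and 273 CPM in replicates 1 and 2, with a mean of 265 ± 11 CPM. Mir103-2, in Pank2, had 12.0 ± 1.8 CPM and Mir103-1, in Pank3, had 1.04 ± 0.76 CPM from 2 and 8 counts. The mature form of Mir103-1 is also that of Mir103-2 over 23 bases and shares 21 bases with Mir107. Reads of these genes can therefore match several places and be set aside, so their levels can be undercounts. Mir33, in Srebf2, the gene of a regulator of cholesterol synthesis, had 7.57 ± 3.44 CPM, with 40 counts in replicate 1 and 26 in replicate 2. Of the 5 listed genes 4 were detected, and Mir378a alone accounted for nearly all of the 9.02% ± 0.63 that the list took of the assigned counts. The messenger RNAs of the host genes were not measured in these libraries.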

How the data were processed

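The authors deposited raw read counts per miRNA gene, 1 table per library, with 3 count columns (strand ignored, sense, opposite) and 4 summary rows. Per the metadata deposited beside the tables, the assembly was mm10 and the annotation GENCODE M21. Which aligner and counter were used is not given in the sources used here. The columns have no header. Column totals (sense 5.61 and 5.47 times the opposite column) gave the strand. Nearly all opposite counts were at genes that overlap a miRNA gene on the other strand. The remaining genes had 3286206 sense and 35 opposite counts in replicate 1, and 4136880 and 39 in replicate 2. Summary rows (58.7% and 60.7% of reads) stayed out of library totals. All 2202 identifiers matched M21. The 2 libraries are not duplicates (chi-square 85.7 per degree of freedom).

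Totals were scaled by TMM (edgeR 4.0.16, R 4.3.3), with DESeq2 1.42.0 size factors as an alternative. Genes averaging 10 or more counts were tested by the exact binomial test (scipy 1.17.1). P-values of the exact binomial test measure counting error only. Those of the negative binomial test also take in the variation between these 2 libraries. On simulated Poisson counts of 332 genes, the test recovered, with the correct sign, 97 of 108 genes changed 2-fold and 90 of 92 changed 4-fold, and 3 of 132 unchanged genes were called. Those simulated counts hold counting error only and were tested with plain totals. They therefore do not give the error rate of the test between the real libraries. Hairpins were folded with RNAfold 2.7.2. Beside the members, the genes named are 2 on either side of Mir378a in level, the 3 nearest in ratio, and those of the fixed lists. Members and lists were chosen with earlier results of these data known.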

Additional observations from a re-analysis of the deposited data

How the results depend on the processing

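Over the alternatives run, each member had a lower scaled level in replicate 2 wherever it could be tested, and leaving out either library left the 4 members detected. With all reads as denominator, the levels were 36285 counts per 1000000 reads for Mir378a, 13.9 for Mir378c, 8.18 for Mir378d and 4.08 for Mir378b. In the column that ignores strand, Mir378a was at 0 CPM, its share of the family was 0% and Mir378c was at 42.0 CPM, since that column has a smaller total. Without replicate 1 or 2, Mir378a ranged from 85501 to 94353 CPM, Mir378c from 31.6 to 37.3, Mir378d from 16.4 to 24.0 and Mir378b from 7.11 to 13.0. Plain totals gave 79 genes lower in replicate 2 in place of 41. The negative binomial exact test of edgeR gave 6 genes in all, 6 higher and 0 lower (20 and 3 at an unadjusted p under 0.05). Of the 3 members compared by sequence (not Mir378a), 0 shared a hairpin stretch of 20 nt or 22 nt with another gene of the RefSeq table, and 2 (Mir378b and Mir378c) shared one of 18 nt. Detection at minimums of 1, 5 or 20 counts gave 4 members. Dividing by hairpin length was chosen after seeing the data. Precision of Mir378b, Mir378c and Mir378d is limited by their counts, 36 to 160 per library. No paired analysis was possible because the series has 1 group.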
